A study of Arabidopsis thaliana with 8 samples.

Results

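The genes described here are 31 nuclear genes for subunits of the photosystems and for the proteins that carry electrons between and after them, in leaves of Arabidopsis thaliana treated with the immune elicitor elf18. They were taken by locus from the 27172 genes of each deposited table. The rule used no measured value, but the genes were chosen with earlier results of these data known. All 31 were found and tested in every comparison. They comprise 12 genes of photosystem I, 11 of photosystem II, 6 of electron carriers and 2 of the chloroplast ATP synthase. Genes of the light-harvesting antenna were not among them, and the plastid-encoded core subunits of the same complexes were not analysed here.

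All plants were of the Col-0 ecotype and carried the transgene 35S:uORFsTBF1-LUC, a luciferase reporter under the constitutive 35S promoter, in mock and elf18 samples alike. Plants were 3 weeks old when 10 µM elf18 was infiltrated into their leaves, or 10 mM MgCl2 as mock. Elf18 is a fragment of bacterial elongation factor Tu, and the plant senses it through the receptor kinase EFR. About 24 plants with 2 leaves each went into a lysate, so a lysate represents whole leaves of many plants, and no source used here gives the time of harvest. From each of 4 lysates, numbered 2 and 3 for mock and 1 and 3 for elf18, a library of total RNA and a library of ribosome footprints were sequenced, which gave 8 libraries in 4 groups of n = 2. Ribosome footprints are the mRNA stretches that ribosomes protect from nuclease, and their count on a coding sequence reflects how many ribosomes were on it.

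In the thylakoid membrane, photosystem II oxidizes water and passes electrons through the cytochrome b6f complex and plastocyanin to photosystem I, which reduces ferredoxin. Ferredoxin-NADP reductase then makes NADPH, and the proton gradient built along the way drives the ATP synthase. The reaction centres themselves are mostly encoded in the plastid, while the nuclear genes described here supply the water-splitting extrinsic proteins, the docking subunits and the mobile carriers, which are imported into the chloroplast.

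Depth was not limiting for these genes. Coding-sequence counts ranged from 6409393 to 12834781 for RNA and from 4752563 to 6717946 for footprints, and the rarest of the genes, PETE1, still had 517 to 2974 counts per library. Transcripts of the Rubisco small subunit RBCS1A, a mesophyll gene, were at 19983 to 25653 CPM in RNA, where CPM are read counts scaled to library size and adjusted by the TMM method so that libraries can be compared. The defence transcription factor WRKY33 rose with elf18 by 2.27 ± 0.14 (SE) on the log2 scale in RNA, which checks the treatment labels (edgeR quasi-likelihood test, adjusted p = 0.0029). Replicate libraries agreed closely over the 31 genes, with a Pearson r of log2 CPM of 0.984 to 0.997 across genes within a group, a description of genes spread over a wide range of levels. Over the 16177 genes tested in the fit of all 8 libraries it was 0.772 to 0.911, lowest in elf18 RNA. Levels are compared between libraries only within a gene, since counts also depend on the length of a coding sequence.

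Summed over the 31 genes, the share of all coding-sequence counts was lower in elf18 than in mock leaves in both assays and lower in footprints than in RNA. In RNA the genes took 9.63% and 9.68% of the counts of the mock libraries and 8.44% and 8.84% of those of the elf18 libraries. In footprints they took 5.94% and 5.60% in mock and 4.68% and 4.58% with elf18. The 4 pairs of values did not overlap, and counting error was small beside the differences, with a Wilson 95% interval of 9.62% to 9.65% for mock RNA replicate 1, which covers counting error only since the labels mention no molecular identifiers. A share of a library depends on every other gene in it, and the scaled levels given below take part of this shift out. With groups of 2 an exact permutation test cannot give a p under 0.333, so no test of these sums was made. Photosystem I genes held 0.973 to 1.06 times the counts of photosystem II genes in RNA but 0.831 to 0.903 times in footprints, without overlap between the assays.

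**Figure D1:**
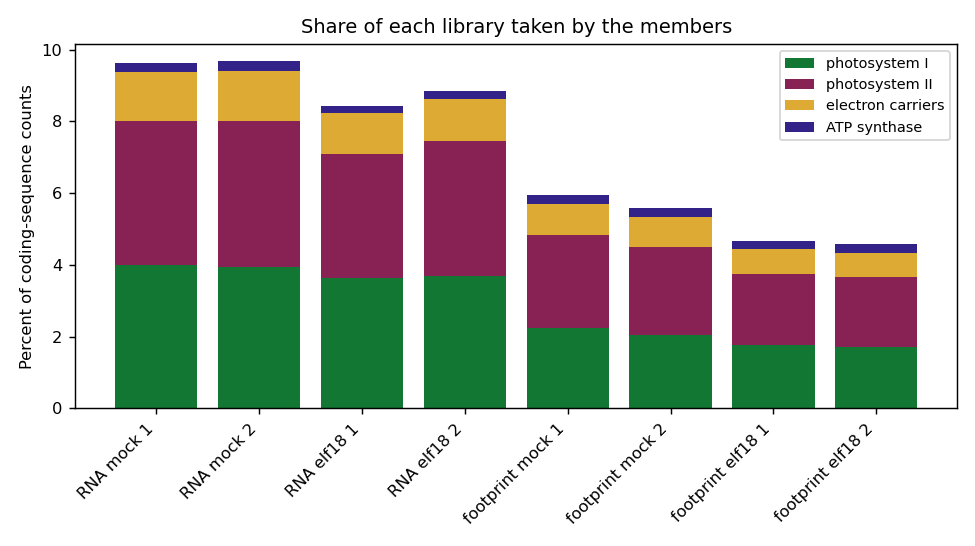
Share of all coding-sequence counts (percent, linear axis from 0) taken by the 31 genes in each of the 8 libraries, stacked by complex. The total falls from 9.63% and 9.68% in mock RNA to 4.68% and 4.58% in elf18 footprints, and photosystem I and photosystem II genes hold most of it in every library.

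Changes between elf18 and mock leaves were tested gene by gene with edgeR's quasi-likelihood test, with p-values adjusted over all genes by the Benjamini-Hochberg method and genes called at an adjusted p under 0.05. The standard error given with a log2 change was derived from that change and its test statistic. In bulk leaf samples, fewer cells of a type and less RNA per cell cannot be told apart, and no source used here says whether the lysates came from separate plantings, so the p-values measure the spread between these lysates.

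In total RNA, none of the 31 genes passed the test in either direction on coding-sequence counts. Of the 15441 genes tested, 2.59% were called higher and 0.117% lower. Among the 678 genes at least as abundant as the rarest of the 31, 22.4% were called higher and 1.33% lower. At an unadjusted p under 0.05 in the edgeR test, 3 of the photosynthetic genes were lower (PSAH2, PETE2 and ATPD) and 1 was higher (PSAH1). Over all 15441 genes, 1392 were lower and 1057 higher at that level, and among the 678 abundant genes 78 and 211. DESeq2 called 3 of the 31 lower and 2 higher, beside 1463 lower and 1162 higher of the 15441. The median log2 change of the 31 genes was -0.04, beside -0.10 over all genes tested, and 20 of the 31 values lay below 0. Counts over exons gave the same picture, with none of the 31 called beside 3.04% higher and 0.158% lower calls over all genes. The exon median of the 31 was -0.06. At an unadjusted p under 0.05, 5 of the 31 were lower and 2 higher on exons, beside 1375 and 1151 of 15870 genes. DESeq2 called 4 lower and 2 higher on exons, beside 1383 and 1245 of the 15870. The elf18 RNA libraries differed from each other more than the mock libraries did. On coding sequences, leaving out elf18 replicate 1 gave a median over the 31 of 0.03, beside -0.25 over all genes. Leaving out elf18 replicate 2 gave -0.09, beside -0.21.

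Among photosystem I genes, the pair for the subunit PsaH, on the side of the complex where mobile antenna docks, showed values on opposite sides of mock. PSAH1 (AT3G16140) RNA was at 1124 and 1111 CPM in the mock libraries and at 1399 and 1363 CPM in the elf18 libraries. PSAH2 (AT1G52230) RNA was at 1476 and 1559 CPM in mock and at 1297 and 1239 CPM with elf18. Neither gene's groups overlapped, PSAH1 being higher and PSAH2 lower with elf18. The log2 changes were 0.31 ± 0.08 (adjusted p = 0.15) for PSAH1 and -0.26 ± 0.09 (adjusted p = 0.21) for PSAH2, so neither passed the edgeR test, although DESeq2 called both.

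PSAD2 (AT1G03130), 1 of the 2 genes for the stromal subunit PsaD that docks ferredoxin, had the lowest RNA value of all 31, with a log2 change of -0.52 ± 0.22 (adjusted p = 0.35). Its RNA was at 993 and 935 CPM in mock and at 820 and 522 CPM with elf18. Both elf18 libraries lay below mock, elf18 replicate 2 far more than elf18 replicate 1. Its paralog PSAD1 (AT4G02770) was at 2448 and 2204 CPM in mock and at 2245 and 1972 CPM with elf18, where the groups overlapped. PSAO (AT1G08380), another subunit of the docking side, was at 3658 and 3750 CPM in mock and at 4068 and 4170 CPM with elf18, without overlap, a log2 change of 0.15 ± 0.07 that did not pass (adjusted p = 0.41). The other photosystem I genes (PSAE1, PSAE2, PSAF, PSAG, PSAK, PSAL and PSAN) had RNA values between -0.22 and 0.13.

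Photosystem II RNA values were closer to mock, between -0.22 for PSBQ2 and 0.15 for PSBR. PSBO1 (AT5G66570), the main gene for the manganese-stabilizing extrinsic protein of the water-splitting site, was at 7779 and 7816 CPM in mock and at 7354 and 7922 CPM with elf18, and the groups overlapped. PSBS (AT1G44575), whose protein triggers the dissipation of excess light energy, was at 1610 and 1782 CPM in mock and at 1736 and 1799 CPM with elf18, also with overlap. PSBQ1, PSBQ2 and PSBO2, further extrinsic proteins, lay below mock in both elf18 libraries, with log2 changes of -0.12 to -0.22, none of which passed.

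All 6 carrier genes had RNA values below 0, between -0.01 for PETC, the Rieske protein of the cytochrome b6f complex, and -0.23 for PETE1, the minor plastocyanin gene, and none passed. PETE2 (AT1G20340), the main plastocyanin gene, was at 5208 and 5138 CPM in mock and at 4559 and 4584 CPM with elf18, with no overlap and a log2 change of -0.18 ± 0.07 (adjusted p = 0.27). ATPD (AT4G09650), the delta subunit of the ATP synthase, was at 878 and 1024 CPM in mock and at 754 and 647 CPM with elf18, again without overlap, a log2 change of -0.44 ± 0.13 that did not pass (adjusted p = 0.16). The gamma subunit gene ATPC1 (AT4G04640) was at 1611 and 1572 CPM in mock and at 1449 and 1642 CPM with elf18, where the groups overlapped. In RNA, groups without overlap were found for 10 of the 31 genes in the lower and 3 in the higher direction, beside 28.5% and 17.7% of all genes tested. On exons it was 9 lower and 3 higher, beside 27.8% and 18.2%.

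**Figure D2:**
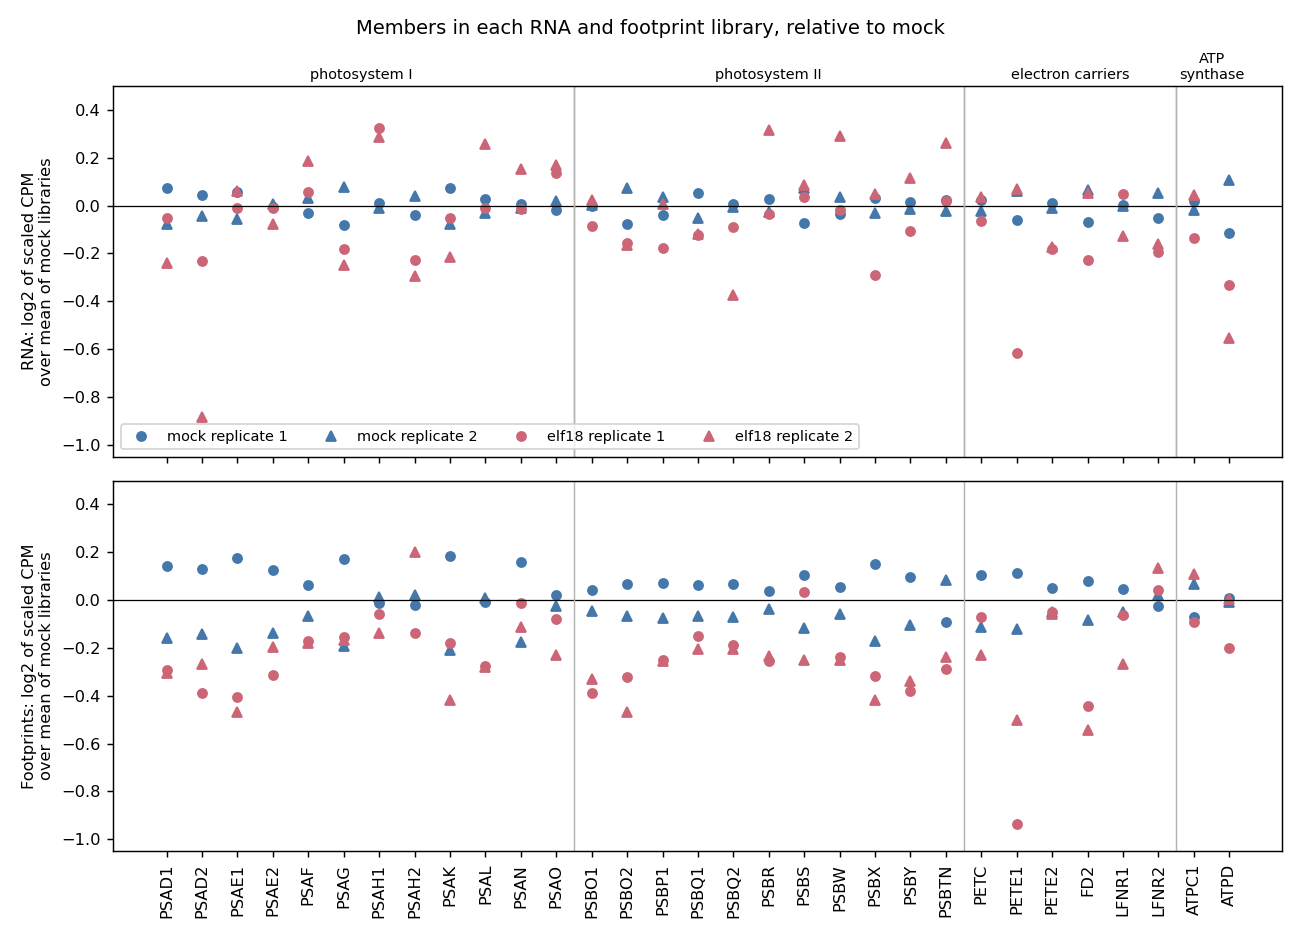
Level of each of the 31 genes in each library as log2 of scaled CPM over the mean of the mock libraries (linear axis of log2 values), for RNA in the upper panel and footprints in the lower, with circles for replicate 1 and triangles for replicate 2. In the footprint panel both elf18 points lie below both mock points for 21 of the 31 genes, beside 19.9% of all genes tested. In the RNA panel they do so for 10 of the 31, beside 28.5% of all genes tested.

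In ribosome footprints, 2 of the 31 genes fell with elf18 and none rose, beside 0.166% lower and 2.59% higher calls among the 14446 genes tested. The 2 were PSBO1 and FD2. Values for 28 of the 31 lay below 0, with a median of -0.25 beside 0.01 over all genes tested. At an unadjusted p under 0.05, 11 of the 31 were lower and 0 higher, beside 415 and 793 of the 14446. Among the 1358 genes whose mean footprint count was at least that of the rarest of the 31, 1.55% were called lower and 16.9% higher, and 52.0% lay below 0. At an unadjusted p under 0.05, 179 of these 1358 were lower and 324 higher.

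PSBO1 footprints were at 5881 and 5531 CPM in mock and at 4355 and 4543 CPM with elf18. They fell by 22.0%, a log2 change of -0.36 ± 0.08 (edgeR adjusted p = 0.041). FD2 (AT1G60950), the main leaf ferredoxin, which takes electrons from photosystem I, was at 2417 and 2158 CPM in mock and at 1684 and 1569 CPM with elf18. FD2 footprints fell by 28.9%, a log2 change of -0.49 ± 0.11 (edgeR adjusted p = 0.036). In both genes the 2 elf18 libraries lay below the 2 mock libraries by more than the difference within either group, while the RNA of both overlapped between groups. Both calls lay close to the threshold: neither gene was called with RLE size factors in place of TMM or when either elf18 footprint library was left out, PSBO1 was not called without the filter on low counts, and FD2 was not called when a mean count of 50 or more was required. Leaving out mock replicate 1 gave a median log2 footprint change of -0.13 over the photosynthetic genes, beside -0.06 over all genes tested. Leaving out mock replicate 2 gave -0.27, beside 0.26 over all genes tested. Both fits kept a single mock library, so only sizes of change are given for them.

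In photosystem II the footprint values of all 11 genes lay below 0, from -0.10 for PSBS to -0.39 for PSBO2. For 10 of the 11, all but PSBS, the groups did not overlap, beside 19.9% of all genes tested in the lower direction. PSBO2 (AT3G50820), the second gene for the manganese-stabilizing protein, was at 1573 and 1433 CPM in mock and at 1202 and 1086 CPM with elf18, a log2 change of -0.39 ± 0.12 (edgeR adjusted p = 0.20). PSBP1 (AT1G06680), for another extrinsic protein of the water-splitting site, was at 4509 and 4064 CPM in mock and at 3604 and 3592 CPM with elf18, a log2 change of -0.25 ± 0.09 (edgeR adjusted p = 0.33). The elf18 libraries of both genes lay below both mock libraries, yet neither change passed the test over all genes. PSBY (AT1G67740), a small membrane subunit, was at 2110 and 1835 CPM in mock and at 1514 and 1559 CPM with elf18. PSBX (AT2G06520), another small membrane subunit, was at 1288 and 1030 CPM in mock and at 931 and 868 CPM with elf18. The elf18 libraries lay below mock in both, but in PSBX by less than the mock libraries differed from each other. The edgeR adjusted p was 0.22 for PSBY and 0.43 for PSBX. PSBS alone overlapped, at 1657 and 1421 CPM in mock and at 1573 and 1293 CPM with elf18.

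In photosystem I, 11 of 12 footprint values lay below 0 and none passed. PSAE1 (AT4G28750), the main gene for the stromal subunit PsaE beside the ferredoxin site, had the lowest, at 1841 and 1421 CPM in mock and 1233 and 1180 CPM with elf18, a log2 change of -0.43 ± 0.14 (edgeR adjusted p = 0.21). PSAL (AT4G12800), which anchors the docking side of the complex, was at 3464 and 3501 CPM in mock and at 2875 and 2869 CPM with elf18. The libraries of each group lay close together and the groups apart, with a log2 change of -0.28 ± 0.09 that did not pass (edgeR adjusted p = 0.24), while DESeq2 called it. PSAF (AT1G31330), the subunit that binds plastocyanin, was at 4577 and 4181 CPM in mock and at 3885 and 3866 CPM with elf18. PSAH2 was the only photosystem I gene with a value above 0, at 653 and 671 CPM in mock and 602 and 761 CPM with elf18, and its groups overlapped. Groups without overlap were found for 8 of the 12 genes, all lower with elf18, beside 19.9% of all genes tested in that direction.

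The carriers and the ATP synthase were mixed. PETE1 (AT1G76100) had the lowest footprint value of the 31, at 178 and 151 CPM in mock and 86 and 116 CPM with elf18, but the error was large, with a log2 change of -0.70 ± 0.27 (edgeR adjusted p = 0.41). PETE2, which supplied most plastocyanin footprints, was at 2938 and 2741 CPM in mock and at 2744 and 2724 CPM with elf18, where the groups overlapped. LFNR2 (AT1G20020), 1 of the 2 leaf ferredoxin-NADP reductases, was the only one of the 31 with both elf18 libraries above both mock libraries, at 603 and 623 CPM in mock and 632 and 673 CPM with elf18. The log2 change of 0.09 ± 0.15 was smaller than its standard error. ATPC1 footprints were at 1623 and 1783 CPM in mock and at 1598 and 1836 CPM with elf18, and ATPD footprints were at 858 and 848 CPM in mock and at 743 and 856 CPM with elf18. Both ATP synthase genes thus overlapped between groups. Over all 31 genes, groups without overlap were found for 21 in the lower and 1 in the higher direction, beside 19.9% and 19.3% of all genes tested.

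Markers of other leaf cell types differed between the footprint groups as well. The summed footprint CPM of 7 guard cell genes was 118 and 110 in mock and 77.7 and 68.5 with elf18. All 7 of 7 log2 values lay below 0 and none passed, and SLAC1 was at 0 in elf18 replicate 1 and HT1 in elf18 replicate 2. The footprint sum over 5 epidermis genes was 541 and 583 in mock but 482 and 395 with elf18, with PDF1 at 0 in mock replicate 1 and PDF1 and GL2 at 0 in elf18 replicate 2. Of these 5 genes 4 had log2 values below 0 and 1 above, with a range of -2.28 to 0.70. The footprint sum over 5 vascular genes was 859 and 799 in mock but 949 and 987 with elf18, with none at 0. Of the vascular genes 2 had log2 values below 0 and 3 above, with a range of -1.21 to 1.12. In RNA the guard cell sums overlapped, at 85 and 88.4 in mock and at 101 and 70.7 with elf18. Epidermis RNA sums were 411 and 416 in mock but 300.3 and 348 with elf18. Vascular RNA sums were 687 and 624 in mock but 810 and 1038 with elf18. RNA values lay below 0 for 4 of 7 guard cell, 3 of 5 epidermis and 1 of 5 vascular genes. In RNA, 1 guard cell gene was at 0 in elf18 replicate 1 and 3 in elf18 replicate 2. An epidermis gene was at 0 in mock replicate 1 and also in elf18 replicate 1. No marker of the 3 lists passed in RNA or in footprints. The part of these differences in the footprint values of the photosynthetic genes was not tested.

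Nuclear genes of the same thylakoid were read beside them. Of 36 further genes for assembly factors, regulators, minor subunits and membrane shape, 35 were tested in footprints and none passed, with a median log2 change of -0.20. Of 20 antenna genes, 4 fell in footprints and none rose, with a median of -0.32. Antenna proteins bind the chlorophyll that feeds both photosystems. Of those 4, LHCB1.4 was at 1580 and 1201 CPM in mock and at 720 and 647 CPM with elf18, a log2 change of -1.02 ± 0.16 (edgeR adjusted p = 0.0021). Of 11 Rubisco and Calvin cycle genes, 1 fell, RBCS1A, with a median over the 11 of -0.23. In RNA none of these genes passed on coding sequences, and the medians were -0.10 for the further thylakoid genes, -0.02 for the antenna and -0.10 for Rubisco and the Calvin cycle, beside -0.10 over all genes. No difference between these groups of genes and the 31 was tested.

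Whether footprints changed by more than RNA was asked with the interaction of assay and treatment in a fit over all 8 libraries, which tests the change in translational efficiency. None of the 31 genes passed, beside 0% called in either direction among 16177 genes. At an unadjusted p under 0.05, 6 were lower (PSAE1, PSAL, PSBO1, PSBR, PSBW and FD2) and 0 were higher. Over all 16177 genes, 252 were lower and 473 higher at that level. Among the 904 genes at least as abundant as the rarest of the 31, 81 were lower and 22 higher. DESeq2 also called none of the 31, beside 32 lower and 38 higher over all genes. The median change in efficiency was -0.13 beside 0.16 over all genes tested. Below 0 lay 23 of the 31 values, beside 43.5% of all genes. Among the 904 abundant genes the median was -0.05, and 56.6% lay below 0.

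The efficiency value of PSAL was -0.37 ± 0.14, that of PSAE1 was -0.42 ± 0.17 and that of FD2 was -0.37 ± 0.16, none of which passed (edgeR adjusted p = 0.9999 each). For all 3 genes the footprint to RNA ratio in both elf18 lysates was below that in both mock lysates. ATPD had the highest value, 0.39 ± 0.20, with RNA below mock and footprints that overlapped with it. PSAH1, at -0.36 ± 0.17, and PSAH2, at 0.34 ± 0.19, stood on opposite sides of 0, the reverse of their RNA values. PSAH1 footprints, at 658 and 670 CPM in mock and at 638 and 603 CPM with elf18, and those of PSAH2 stayed closer to mock than the RNA of either gene. Ratios without overlap were found for 13 genes in the lower and 5 in the higher direction (PSAH2, PETE2, LFNR2, ATPC1 and ATPD), beside 12.4% and 21.9% of all genes tested.

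**Figure D3:**
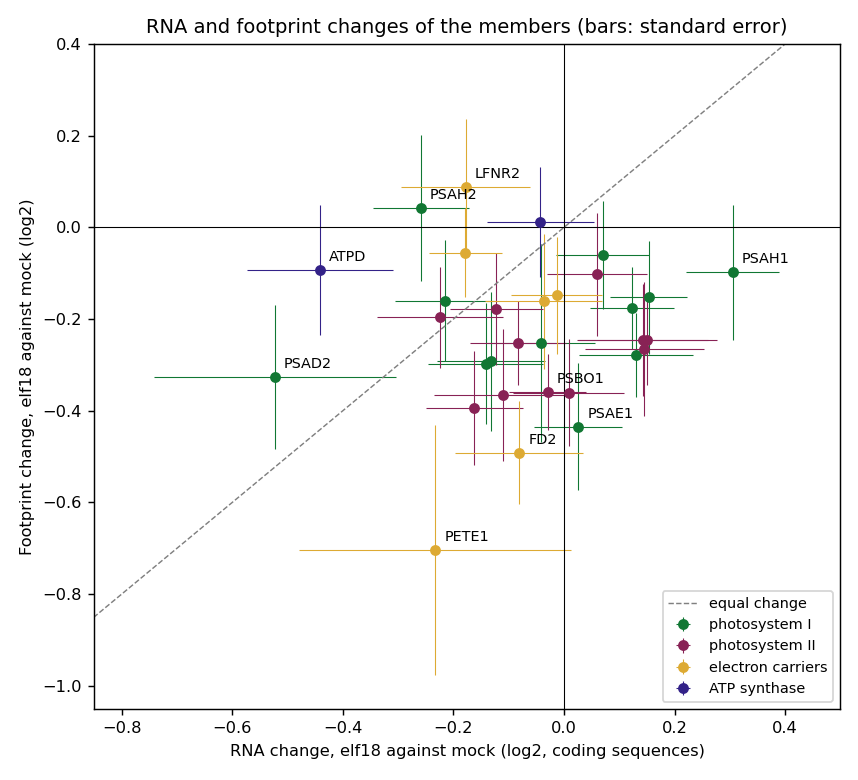
Log2 change with elf18 against mock in footprints (vertical axis) and in RNA on coding sequences (horizontal axis) for the 31 genes, with standard errors as bars and a dashed line of equal change. 23 of the 31 points lie below the line. RNA changes run from -0.52 for PSAD2 to 0.31 for PSAH1, and footprint changes from -0.70 for PETE1 to 0.09 for LFNR2.

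Across the 31 genes the RNA changes and footprint changes showed little correlation, with a Pearson r of 0.06 and a Spearman rho of 0.02. These points are genes and not independent replicates, and both changes come from the same 4 lysates, so the values are given as a description. The SD over genes was 0.18 in RNA and 0.16 in footprints, beside median standard errors of 0.10 and 0.13. With errors of this size a low correlation cannot show that the changes are unrelated. The footprint change was below the RNA change in 23 of the 31.

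Footprints and RNA also differed within each treatment. In mock leaves 23 of the 31 genes had fewer footprints than their RNA level would give at the scaling of all genes, and 1 had more, beside 1.87% lower and 1.56% higher calls among the 16177 genes tested by edgeR. The median log2 ratio of footprints to RNA was -0.72, beside -0.14 over all genes. With elf18 there were 24 lower and 1 higher, beside 2.68% lower and 2.95% higher calls, and the median was -0.91 beside 0.07 over all genes. Among the 904 genes at least as abundant as the rarest of the 31, 19.4% were called lower in mock and 23.7% with elf18. The ratio is relative to all genes and is not a rate of initiation, and the part of coding length, which the files do not give, was not tested.

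The lowest ratios in mock were those of PSBX, PSBW, PSAE2 and PSAO. PSBX had 0.283 and 0.236 footprints per RNA, in scaled CPM, in the mock lysates and 0.265 and 0.193 in the elf18 lysates. The mock ratio was -1.94 ± 0.14 on the log2 scale (edgeR adjusted p = 2.9e-07). PSBW (AT2G30570), a small subunit at the antenna interface of photosystem II, had ratios of 0.331 and 0.291 in mock and 0.277 and 0.218 with elf18. PSAO had ratios of 0.329 and 0.311 in mock and 0.286 and 0.248 with elf18. In these 3 genes every lysate gave a ratio of at most 0.331, and both elf18 values lay below both mock values in PSBW and PSAO. PSAE2 (AT2G20260), the minor PsaE gene, had a mock log2 ratio of -1.66 ± 0.16, and PSBTN (AT3G21055), a small lumenal protein of photosystem II, had one of -1.39 ± 0.13. PSAK, PSAH2, PSAE1 and PSAL had mock log2 ratios between -1.26 and -1.37, and all were called lower.

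The genes for extrinsic proteins of the water-splitting site (PSBO1, PSBO2, PSBP1, PSBQ1 and PSBQ2) had mock log2 ratios between -0.86 for PSBP1 and -0.28 for PSBQ2, and all but PSBQ2 were called lower in both treatments. PSBP1 had ratios of 0.597 and 0.510 in mock and 0.544 and 0.472 with elf18, where the groups overlapped. PSBO2 had a log2 ratio of -0.69 ± 0.11 in mock and -0.88 ± 0.11 with elf18. PSBO1 had ratios of 0.673 and 0.629 in mock and 0.546 and 0.521 with elf18, without overlap. PSBQ1 (AT4G21280) had ratios of 0.642 and 0.630 in mock and 0.647 and 0.614 with elf18, the narrowest range of the 31 over the 4 lysates. Its paralog PSBQ2 (AT4G05180) had ratios of 0.862 and 0.786 in mock and 0.797 and 0.948 with elf18. It was not called in either group. PSBS also was not called, with mock and elf18 log2 ratios of -0.31 ± 0.13 and -0.43 ± 0.13.

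LFNR2 stood apart from the other 30 genes in both groups. It had 1.56 and 1.5 footprints per RNA in the mock lysates and 1.87 and 1.92 in the elf18 lysates. All 4 values were above 1, and the elf18 values lay above the mock values. The log2 ratio was 0.61 ± 0.15 in mock (edgeR adjusted p = 0.026) and 0.92 ± 0.15 with elf18 (edgeR adjusted p = 9.5e-04), while the change in efficiency between them did not pass, at 0.31 ± 0.21. Leaving out any of the mock RNA or mock footprint libraries ended the mock call, and the elf18 call held under every alternative run. Its paralog LFNR1 (AT5G66190) had ratios of 0.854 and 0.799 in mock and 0.792 and 0.768 with elf18. It was called in neither group. Both ATP synthase genes were uncalled in both groups, with the ratios of ATPC1 between 0.896 and 1.02 over the 4 lysates.

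**Figure D4:**
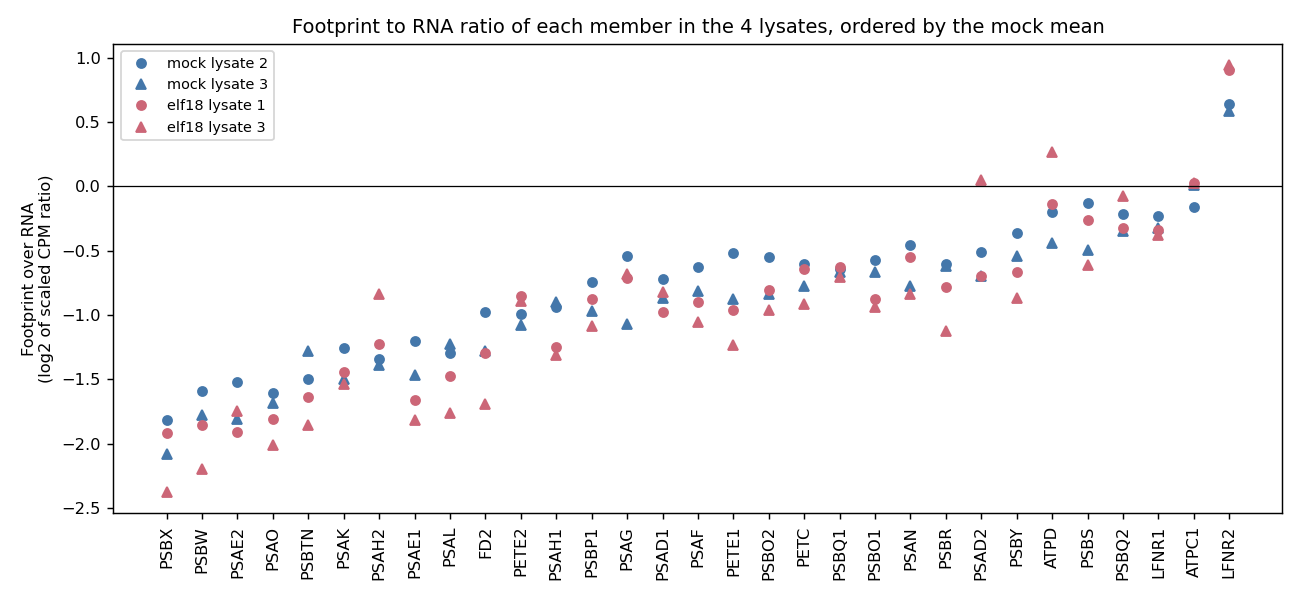
Log2 ratio of footprint to RNA level (scaled CPM on coding sequences, linear axis of log2 values) of each of the 31 genes in each of the 4 lysates, ordered by the mean of the mock lysates. The order runs from PSBX, at -1.82 or below in every lysate, to LFNR2, the only gene above 0 in all 4.

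The order of the genes by this ratio recurred between lysates, with a Pearson r of 0.898 to 0.966 and a Spearman rho of 0.828 to 0.932 over the 31 genes for the 6 pairs of lysates. The lysates share gene lengths, base composition and mapping, so this is a description of these genes and not a test. The log2 ratio of a gene ranged over the 4 lysates by 0.08 for PSBQ1 up to 0.75 for PSAD2, and neighbours in the order overlapped over the lysates, except LFNR1 with ATPC1 and ATPC1 with LFNR2. Coding sequences took a median of 90.6% to 93.1% of the exon counts of the 31 genes in the RNA libraries, beside 86.8% to 93.0% over genes with at least 100 exon counts. The lowest mean shares were those of PSAH2, at 78.2% in mock and 79.99% with elf18, and of PSBQ2, at 81.8% in mock and 79.4% with elf18.

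Several other thylakoid genes had low ratios too. Of the 36 further genes, 10 were called lower and 2 higher in mock. The lowest were CURT1A (AT4G01150) at -2.05 ± 0.18 and CURT1B (AT2G46820) at -1.56 ± 0.13, which curve the grana margins. They were followed by PETM (AT2G26500) at -1.38 ± 0.13. Next were the phosphatase gene TAP38 at -1.23 ± 0.32 and PGR5, which acts in cyclic electron flow, at -1.0 ± 0.24. The assembly and repair factors PSB28 and PSB27 had values of -1.0 ± 0.22 and -0.98 ± 0.17, and PSB33 had -0.94 ± 0.21. The 2 higher genes, named after their values were seen, were ABA1, zeaxanthin epoxidase, at 0.80 ± 0.14, and FTSH5, a subunit of the thylakoid protease that repairs photosystem II, at 0.53 ± 0.13. Of the antenna genes 15 of 20 were called lower and none higher, and of the Rubisco and Calvin cycle genes 5 of 11 were called lower and none higher.

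For 7 subunits the 31 genes include a pair of paralogs, and the share of a pair's counts that fell on a given gene compares libraries without the need for scaling. No source used here gives how reads that match both copies were counted, so the split within a pair is uncertain, and values for the genes of a pair should be read with this limit. The largest shift with elf18 was in RNA of the PsaH pair. PSAH1 held 43.2% and 41.6% of the pair's RNA counts in mock and 51.9% and 52.4% with elf18. In footprints it held 50.2% and 50.0% in mock and 51.4% and 44.2% with elf18. The mean RNA share rose from 42.4% ± 1.15 (SD, n = 2) to 52.1% ± 0.35 (SD, n = 2), a difference of 9.72 points that exceeded the spread of both groups, whereas the footprint shares overlapped.

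PSAD1 held 71.1% and 70.2% of the PsaD RNA counts in mock and 73.3% and 79.1% with elf18, without overlap, and its footprint shares were 68.1% and 67.6% in mock and 69.3% and 67.4% with elf18, with overlap. No shift was resolved in the PsbO pair, where PSBO1 held between 77.5% and 80.7% in every library and every set of groups overlapped. Its mean RNA share was 78.3% in mock and 79.8% with elf18. 

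The ferredoxin-NADP reductase pair differed most between assays. LFNR1 held 71.2% and 69.6% of the pair's RNA counts in mock but 57.5% and 55.0% of its footprints, and with elf18 it held 73.8% and 70.9% of RNA and 54.4% and 49.3% of footprints. The footprint share lay below the RNA share by 14.2 points in mock and by 20.5 points with elf18, in each case without overlap. PSBQ1 also held less of the footprints than of the RNA of its pair, 39.5% ± 0.12 (SD, n = 2) against 45.8% ± 1.17 (SD, n = 2) in mock. PETE1 was the minor plastocyanin gene throughout, with 4.17% and 4.58% of RNA counts in mock and 3.27% and 5.14% with elf18. Its share of plastocyanin footprints was 5.71% and 5.22% in mock and 3.04% and 4.09% with elf18, where the groups did not overlap. With 2 libraries per group these differences in share carry no test.

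**Figure D5:**
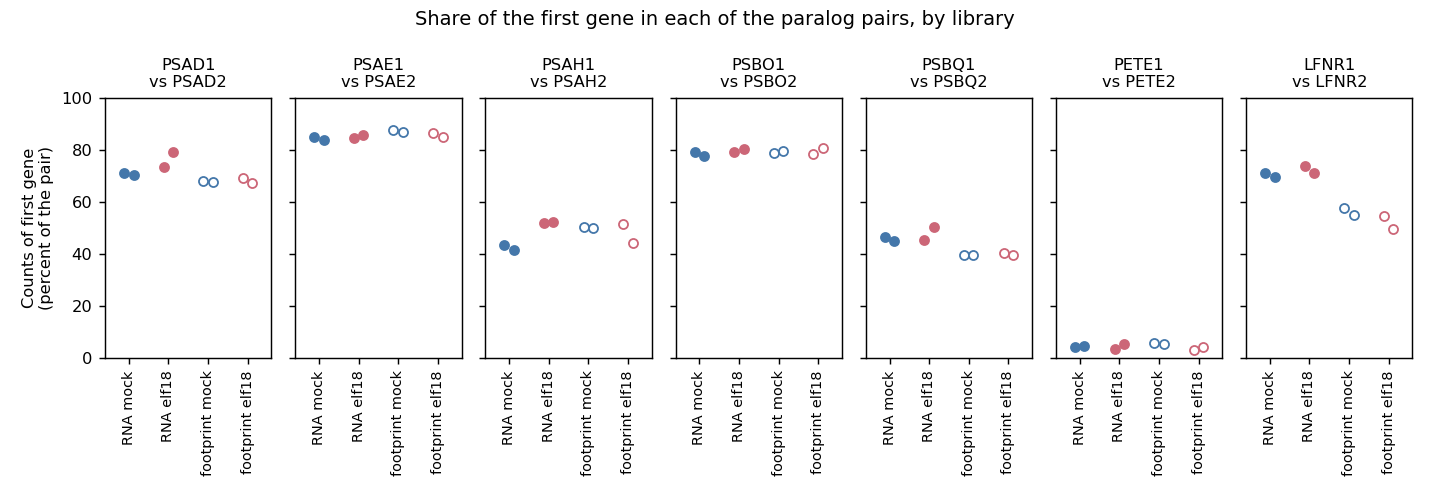
Share of the counts of each of the 7 paralog pairs that fell on the gene named on top of the panel (percent, linear axis from 0 to 100), with filled points for RNA and open points for footprints, 2 libraries per group. The PSAH1 share moves from 43.2% and 41.6% to 51.9% and 52.4% in RNA with elf18, and the LFNR1 share is lower in footprints than in RNA in both treatments.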

How the data were processed

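The authors deposited 2 tables of raw read counts per gene, which hold exon counts of the 4 RNA libraries and coding-sequence counts of all 8 libraries. CASAVA 1.8.2, Bowtie2 2.0, HTSeq and the build TAIR10 are named, per the submitters' processing notes. No source used here states the strand setting or how reads with several matches were counted. Footprint values were blank for 62 genes, which were left out of coding-sequence tests.

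The main test was edgeR 4.0.16 in R 4.3.3 (TMM, filterByExpr with a minimum count of 10, glmQLFit and glmQLFTest), with treatment alone for RNA and footprints, and all 8 libraries for efficiency and for footprint to RNA ratios, where libraries of a lysate were treated as independent. The standard error is the absolute log2 change over the square root of the F statistic. The main edgeR fits for RNA, footprints and efficiency were tested on simulated data. The footprint to RNA ratios, the alternatives and the sums were not. Alternatives were DESeq2 1.42.0, limma 3.58.1 with voom, other size factors and filters, blocks and leaving out each library. The 31 genes, the lists and the tests were chosen with earlier results of these data known. The 31 genes are all named; of the further thylakoid list up to 8 called genes per comparison, by absolute log2 change, and of the other lists up to 3. Symbols came from a RefSeq locus table of TAIR10.1, used for names only. Levels per coding length were planned and not made, since no coding lengths were at hand. Counts were 517 or more per library for all 31 genes, so the spread between lysates and not counting limits the precision.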

Additional observations from a re-analysis of the deposited data

How the results depend on the processing

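No called value among the 31 genes changed sign under any of the 11 to 16 alternatives run per comparison. This covers footprints and the footprint to RNA ratios only, since none of the 31 was called in RNA or efficiency. In RNA, up to 8 uncalled values on coding sequences and 11 on exons changed sign in a single alternative. The RNA values below 0 ranged from 13 to 28 of the 31 on coding sequences and from 14 to 29 on exons. Calls in RNA were 0 in each direction by the main edgeR test. On coding sequences DESeq2 called 2 higher and 3 lower, voom 1 higher and 1 lower, and the replicate block 2 lower. Over all 15441 genes these gave 1162 higher and 1463 lower, 388 and 77, and 677 and 159. Leaving out 1 library gave medians over the 31 from -0.09 to 0.03. On exons DESeq2 called 2 higher and 4 lower, voom 2 higher and 2 lower, and the replicate block 1 lower. Over all 15870 genes these gave 1245 higher and 1383 lower, 489 and 63, and 747 and 169. Leaving out 1 library gave exon medians over the 31 from -0.07 to 0.03, beside -0.22 to -0.05 over all genes. Lower calls in footprints were 2 by the main test, beside 24 of 14446 genes. They became 6 with DESeq2, beside 219 of 14446, and 9 with voom, beside 108 of 14446. With RLE size factors there were 0, beside 19 of 14446. Without a filter there was 1, beside 96 of 18414, and with a mean of at least 50 counts 1, beside 18 of 9817. Leaving out 1 footprint library gave medians over the 31 from -0.27 to -0.13, beside -0.14 to 0.26 over all genes. The higher call in the mock ratio, LFNR2, became 0 when any mock library was left out. Library totals without TMM, an alternative chosen after seeing the data, gave 4 lower calls in footprints, beside 52 of 14446 genes. They moved the median over all genes in RNA from -0.10 to -0.24, and the median over the 31 from -0.04 to -0.19 on coding sequences and from -0.06 to -0.21 on exons. The median ratios of footprints to RNA became -0.58 in mock and -0.76 with elf18. The causes were not tested. Replicate numbers were not taken as pairs: the deviations of same-numbered libraries correlated at 0.02 in RNA and -0.06 in footprints over 16177 genes, and at 0.15 and 0.32 over the 31 genes alone, with no label that marks a number as shared, and the replicate block left the 2 footprint calls in place.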
